A study of Mus musculus with 12 samples.

Results

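The 36 genes described here encode the core machinery of macroautophagy and 5 of its cargo receptors. They were taken from the deposited gene count table by symbol, and all 36 symbols were found among the 55421 Ensembl genes of that table. Each of the 36 also passed the filter on low counts, as 18108 genes did in all, and the lowest count of any of the 36 in any library was 49. The choice of the 36 rested on what the proteins do, not on a threshold of expression or fold change.

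In macroautophagy a membrane sac, the phagophore, grows around cytoplasm and closes into an autophagosome, which fuses with lysosomes. The ULK1 kinase complex starts the process, a class III phosphatidylinositol 3-kinase complex marks the growing membrane with its lipid product PI3P, and PI3P-binding proteins with ATG2 and ATG9 supply lipid. A ubiquitin-like conjugation system then attaches ATG8-family proteins (the LC3 and GABARAP proteins) to the membrane lipid, and cargo receptors tether what is to be degraded to those proteins. Autophagy is known to be remodelled in senescent and in drug-stressed cells, but the measurements here are of messenger RNA, and neither lipidated ATG8 protein nor autophagic flux was measured.

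The libraries came from cultures of MOC2, a line from a squamous cell carcinoma of the mouse mouth. The 4 groups of 3 libraries were MOC2-25 cells labelled EV-Proficient and MOC2-27 cells labelled EV-Deficient, each as a DMSO-treated control and after 600 nM paclitaxel for 48 h, which the labels describe as the senescence-inducing treatment. EV stands for extracellular vesicles, whose release was genetically blocked in the EV-Deficient cells; the labels do not name the blocked gene. Each EV label was carried by 1 derivative of the line, so that EV status and derivative cannot be told apart. The labels number the libraries of a group but do not say whether they came from separate cultures, so p-values measure the spread between these libraries, which may be technical. Library totals ran from 23263472 to 62955757 counts, and levels are given in CPM, counts scaled to a common library size adjusted by the trimmed-mean method (TMM). Scaled by the library totals without the TMM adjustment, 3 counts were worth 0.0477 to 0.129 CPM, depending on the library.

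Some features of the whole set of libraries bear on the EV comparisons, on the paclitaxel effects within each derivative and on the interaction terms below. The first principal component (54.1% of the variance of log CPM) separated paclitaxel from DMSO, but the second (16.4%) placed the EV-Proficient DMSO libraries with the EV-Deficient paclitaxel libraries and the EV-Deficient DMSO libraries with the EV-Proficient paclitaxel libraries. A row that the authors added under the name dngfr, which is not an Ensembl gene, split the libraries in the same way. It stood at 5.73 to 12.2 CPM in EV-Proficient DMSO and 9.63 to 12.4 CPM in EV-Deficient paclitaxel libraries, against 2.47 to 3.76 CPM in EV-Proficient paclitaxel and 1.89 to 2.54 CPM in EV-Deficient DMSO libraries. Whether libraries of the 2 derivatives were exchanged was not tested. All EV directions, effects within a derivative and interaction terms below rest on the libraries as labelled. The paclitaxel effect averaged over both derivatives would be the same if the paclitaxel groups of the 2 derivatives were exchanged, and it is given below for members whose separate effects differed in call or direction. The line expressed the epithelial markers Krt8, Krt18, Epcam and Cdh1 in every library, while the squamous markers Krt5 and Trp63 were at or near 0, at most 0.171 and 0.18 CPM. Of the other squamous keratins, Krt14 spanned 77.4 to 730.3 CPM over the libraries. Its mean in EV-Deficient cells was 681 CPM without and 80.04 CPM with the drug. The Krt14 means in EV-Proficient DMSO and paclitaxel cells were 191.2 and 190.9 CPM. Krt6a had means of 318 and 2.48 CPM in EV-Deficient DMSO and paclitaxel cells, and of 41.95 and 15.5 CPM in those of EV-Proficient cells. The summed level of the 9 squamous and epithelial markers was 6539 to 7004 CPM in EV-Proficient DMSO, 4618 to 4876 in EV-Proficient paclitaxel, 6557 to 7017 in EV-Deficient DMSO and 4303 to 4491 in EV-Deficient paclitaxel libraries. Of the leukocyte markers, Cd3e and Adgre1 were at most 0.0439 and 0.0834 CPM. The summed level of the 5 leukocyte markers was 7.38 to 8.40 CPM in EV-Proficient DMSO, 39.8 to 44.5 in EV-Proficient paclitaxel, 20.8 to 21.5 in EV-Deficient DMSO and 26.4 to 46.9 in EV-Deficient paclitaxel libraries, carried mainly by Cd68 and Csf1r. The 4 fibroblast markers summed to 1.34 to 2.49 and 5.26 to 5.96 CPM in EV-Proficient DMSO and paclitaxel libraries, and to 2.38 to 3.16 and 6.29 to 7.83 CPM in those of EV-Deficient cells. The 3 endothelial markers summed to 2.31 to 2.49 and 2.55 to 3.02 CPM, and to 1.69 to 2.32 and 3.28 to 4.26 CPM, in the same order. The part of these marker levels in the results was not tested.

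Without drug the 36 transcripts spanned a wide range. On the scale of CPM per kilobase of exon, which allows genes to be compared, Sqstm1 (encoding p62, the founding ubiquitin-binding receptor of selective autophagy) was highest at 255 ± 18.6 (SD, n = 3) in EV-Proficient and 283 ± 11.7 in EV-Deficient DMSO cells. Gabarap followed at 107 ± 5.82 and 94.3 ± 0.465, and Gabarapl2 at 34.2 ± 1.70 and 39.4 ± 1.93. The lowest was Atg10, the E2-like enzyme that transfers ATG12, at 1.08 ± 0.259 and 1.13 ± 0.101. The ULK1-complex kinases and scaffold were low: Ulk1 stood at 5.20 ± 0.204 and 6.87 ± 0.523, Ulk2 at 4.22 ± 0.190 and 3.22 ± 0.166, and Rb1cc1 at 4.15 ± 0.244 and 3.64 ± 0.172 CPM per kilobase. Calcoco1 was the third lowest in EV-Proficient DMSO cells after Atg10 and Atg4c, at 2.40 ± 0.171, and moved up to 14.8 ± 1.18 with paclitaxel, between Wipi2 and Atg5. These positions at the top and the bottom of the order (Sqstm1 and Gabarap, Atg10) were the same with coding length. At 10 or more CPM per kilobase of exon stood 14 members in each DMSO group, 16 in EV-Proficient paclitaxel and 15 in EV-Deficient paclitaxel cells; with coding length these counts were 28 in each DMSO group and 32 in each paclitaxel group. The summed level of the 36 genes was 2721 to 2887 CPM in EV-Proficient DMSO and 2906 to 3007 CPM in EV-Deficient DMSO libraries, and it was higher in every paclitaxel library, at 3350.4 to 3424 and 3398 to 3519 CPM.

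**Figure D1:**
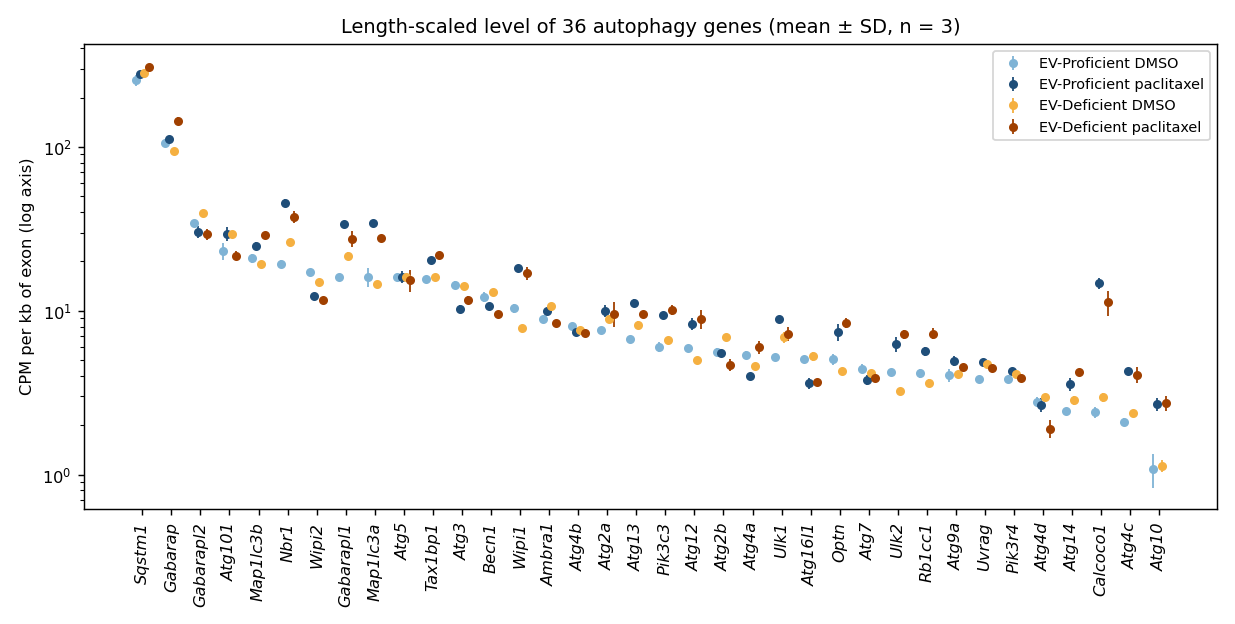
Level of each of the 36 genes in CPM per kilobase of exon (log axis), ordered from high to low, with 1 point per group (mean ± SD, n = 3 libraries). Sqstm1 lies at 255 to 310 in the 4 groups and Atg10 at 1.08 to 2.73, and the largest vertical gap between treatments is that of Calcoco1.

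Paclitaxel changed most of the 36 transcripts, mostly upward and by less than 2-fold. In EV-Proficient cells 29 of 36 passed the test (edgeR quasi-likelihood, Benjamini-Hochberg adjustment over all 18108 genes, threshold 0.05), 23 higher and 6 lower, against a background of 58.2% of all genes tested (31.1% higher and 27.1% lower). In EV-Deficient cells 27 passed, 18 higher and 9 lower, against 62.9% of all genes (32.4% higher and 30.5% lower). Past 2-fold were 6 members in EV-Proficient and 4 in EV-Deficient cells, against 21.9% and 25.2% of all genes; these shares are descriptions and were not tested against each other. Drug and DMSO libraries did not overlap for 31 members in EV-Proficient and 30 in EV-Deficient cells, against 62.3% and 68.7% of all genes. The median log2 fold change of the 36 was 0.34 in EV-Proficient and 0.18 in EV-Deficient cells, beside 0.05 and 0.07 over all genes; with upper-quartile scaling the medians were 0.40 and 0.36, beside 0.11 and 0.26. Both derivatives had 16 members higher (44.4%, against 18.9% of all genes) and 4 lower (11.1%, against 18.5%), each comparison having its own DMSO controls. Averaged over the derivatives, 31 passed, 22 higher and 9 lower, against 68.4% of all genes (37.1% and 31.3%). The table holds bulk RNA, so a change in the amount per cell and a change in the mix of cells cannot be told apart.

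**Figure D2:**
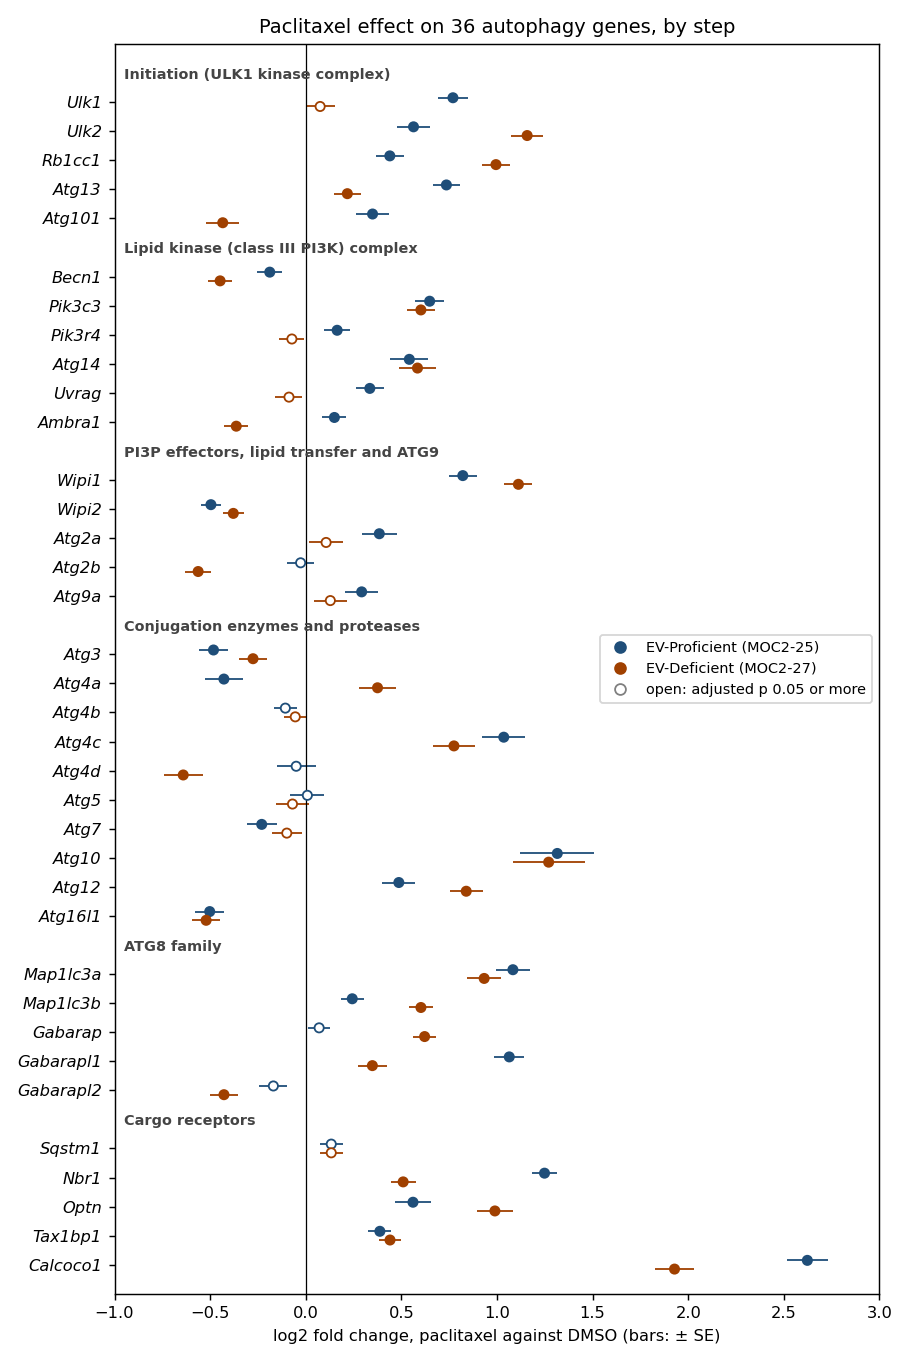
Log2 fold change of paclitaxel against DMSO (± SE) for each of the 36 genes, grouped by step, in EV-Proficient and in EV-Deficient cells. Calcoco1 lies farthest to the right in both (2.62 and 1.93), and Becn1, Wipi2, Atg3 and Atg16l1 lie to the left of 0 in both.

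In the ULK1 initiation complex all 5 members rose in EV-Proficient cells, against 31.1% of all genes. In EV-Deficient cells 3 rose and 1 fell, against 32.4% and 30.5% of all genes, and Ulk1 did not pass; with upper-quartile scaling, which moved the median of all genes there by 0.18, 4 rose. Ulk2, a kinase of the complex, was at 26.4, 24.2 and 25.1 CPM in EV-Proficient DMSO and 38.7, 33.2 and 40.2 CPM in paclitaxel libraries (0.56 ± 0.08, adjusted p = 5.9e-06, log2 fold change ± SE). It was at 18.1, 20.1 and 19.5 CPM in EV-Deficient DMSO and 44.9, 43.7 and 40.1 CPM in paclitaxel libraries (1.16 ± 0.08, adjusted p = 1.0e-10). The drug and DMSO libraries of Ulk2 did not overlap in either derivative. Rb1cc1, which encodes the scaffold FIP200, rose likewise, from 62.1, 63.9 and 57.02 to 84.6, 77.1 and 86.98 CPM in EV-Proficient cells (0.44 ± 0.07, adjusted p = 2.0e-05) and from 54.9, 55.03 and 50.6 to 116, 103 and 101 CPM in EV-Deficient cells (0.99 ± 0.07, adjusted p = 9.5e-11). Ulk1, the better-known kinase of the complex, rose in EV-Proficient cells, from 32.7, 33.2 and 35.2 to 55.8, 58.97 and 57.5 CPM (0.77 ± 0.08, adjusted p = 2.5e-08). In EV-Deficient cells it was at 43.4, 41.95 and 48.4 CPM without and 43.4, 51.96 and 45.6 CPM with the drug, groups that overlap (0.08 ± 0.08, adjusted p = 0.41); with upper-quartile scaling this was 0.26 and passed (adjusted p = 0.0062). Atg13, the adaptor that links the kinases to the scaffold, rose in both, with log2 fold changes of 0.74 ± 0.07 and 0.22 ± 0.07 (adjusted p = 1.4e-08 and 0.01); the second call was lost without the first (0.19) or the third (0.18) EV-Deficient DMSO library. Atg101, the partner that stabilises ATG13, rose in EV-Proficient cells (0.35 ± 0.09, adjusted p = 0.0017) and fell in EV-Deficient cells (-0.43 ± 0.09, adjusted p = 0.00016). The rise of Atg101 rested on 1 library: without the second EV-Proficient paclitaxel library it was 0.21 and did not pass (adjusted p = 0.052). Averaged over both derivatives, 4 of the 5 rose, against 37.1% of all genes, and Atg101 did not pass (-0.04 ± 0.06, adjusted p = 0.56), with Ulk1 at 0.42 ± 0.05, adjusted p = 5.2e-07.

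Among the 6 lipid kinase genes, the catalytic subunit and the autophagy-specific subunit rose in both derivatives while Becn1 fell in both. Pik3c3, the catalytic subunit VPS34, went from 28.8, 26.7 and 25.2 to 41.7, 41.3 and 43.7 CPM in EV-Proficient cells (0.65 ± 0.08, adjusted p = 2.1e-07). Its EV-Deficient libraries went from 30.3, 29.1 and 29.8 to 46.6, 47.5 and 41.4 CPM (0.60 ± 0.07, adjusted p = 3.4e-07). Atg14, which directs the complex to sites of autophagosome formation, rose from 10.6, 10.9 and 10.04 to 13.8, 16.3 and 15.98 CPM (0.54 ± 0.10, adjusted p = 8.3e-05) and from 12.4, 11.4 and 13.05 to 18.1, 18.1 and 19.03 CPM (0.58 ± 0.10, adjusted p = 1.9e-05). The effects on Pik3c3 and Atg14 differed between the derivatives by -0.05 ± 0.11 and 0.04 ± 0.14, and these interaction terms did not pass (adjusted p = 0.77 and 0.84). Becn1, the regulatory subunit Beclin 1, stood at 79.1, 89.9 and 88.6 CPM in EV-Proficient DMSO and 75.7, 78.1 and 72.1 CPM in paclitaxel libraries (-0.19 ± 0.06, adjusted p = 0.017). Its EV-Deficient libraries stood at 95.7, 88.3 and 93.2 and 69.4, 66.1 and 67.8 CPM (-0.45 ± 0.06, adjusted p = 2.9e-06). The fall of Becn1 in EV-Proficient cells was small and did not pass without the second (-0.15) or without the third (-0.17) EV-Proficient DMSO library, nor with upper-quartile scaling (-0.13) or without the low-count filter (-0.16). Of the exonic bases of Becn1, 43.9% overlap Cntd1 on the opposite strand, which was itself at most 0.931 CPM. Uvrag, the alternative partner of the complex in endosomal traffic, rose in EV-Proficient cells (0.33 ± 0.07, adjusted p = 0.00041) and did not pass in EV-Deficient cells (-0.09 ± 0.07, adjusted p = 0.29); averaged over both it was 0.12 ± 0.05, adjusted p = 0.035, a call lost under 11 other settings, 10 of them the removal of 1 library (0.08 to 0.13). Pik3r4, the regulatory subunit VPS15, and Ambra1, a scaffold that tethers Beclin 1, passed narrowly in EV-Proficient cells, at 0.16 ± 0.07 and 0.15 ± 0.06 (adjusted p = 0.039 and 0.046). Ambra1 fell in EV-Deficient cells (-0.36 ± 0.06, adjusted p = 2.7e-05), and the averaged effects were -0.11 ± 0.04, adjusted p = 0.037 for Ambra1, turning to 0.016 with upper-quartile scaling, and 0.05 ± 0.05, adjusted p = 0.4 for Pik3r4. The narrow calls of Pik3r4 and Ambra1 were lost under 14 and 15 of 20 other settings, and without the second EV-Proficient paclitaxel library their values were 0.10 and 0.07; without the first, that of Ambra1 was 0.09.

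Of the 5 genes for PI3P effectors, lipid transfer and the membrane protein ATG9, the WIPI pair moved in opposite directions in both derivatives. Wipi1, a PI3P-binding propeller protein of the phagophore, went from 44.7, 49.2 and 43.3 to 79.6, 81.8 and 81.1 CPM in EV-Proficient cells (0.82 ± 0.07, adjusted p = 3.5e-09). In EV-Deficient cells it went from 36.1, 33.99 and 33.6 to 72.4, 82.5 and 69.4 CPM, a 2.16-fold rise (1.11 ± 0.07, adjusted p = 2.3e-11). Its paralogue Wipi2, which recruits the ATG16L1 complex, went down from 182, 186 and 180.2 to 126, 132 and 131 CPM (-0.50 ± 0.05, adjusted p = 8.4e-08). In EV-Deficient cells Wipi2 went from 161, 158 and 158 to 126, 118 and 122 CPM (-0.38 ± 0.05, adjusted p = 2.8e-06). The drug and DMSO libraries of both genes stood apart in each derivative, Wipi1 above and Wipi2 below its DMSO values. Atg2a and Atg2b encode the lipid-transfer proteins. Atg2a rose in EV-Proficient cells (0.38 ± 0.09, adjusted p = 0.0011) and was at 60.2, 85.3 and 76.6 CPM in the EV-Deficient paclitaxel libraries, a spread that spans its DMSO values (0.11 ± 0.09, adjusted p = 0.32). Without the first of these libraries the effect on Atg2a was 0.22 and passed (adjusted p = 0.0171), as it did with upper-quartile scaling (0.29). Atg2b was at -0.03 ± 0.07 in EV-Proficient cells, which did not pass (adjusted p = 0.76), and fell in EV-Deficient cells (-0.56 ± 0.07, adjusted p = 2.7e-07); averaged over both it was -0.29 ± 0.05, adjusted p = 1.4e-05. The averaged effect on Atg2a was 0.25 ± 0.06, adjusted p = 0.002 and that on Atg9a, described next, 0.21 ± 0.06, adjusted p = 0.004. Atg9a, the scramblase of the seed vesicles, rose by a small amount in EV-Proficient cells (0.29 ± 0.09, adjusted p = 0.0059), a call that was lost without the second or the third paclitaxel library of that group (0.21 and 0.22), and did not pass in EV-Deficient cells (0.13 ± 0.08, adjusted p = 0.19), where it passed with upper-quartile scaling (0.31) and with the filter of 1 CPM in 3 libraries (0.19). Of the exonic bases of Atg9a, 31.8% are shared with the same-strand transcript Gm29253, which was at most 0.0373 CPM.

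The 10 conjugation enzymes and proteases moved in both directions: 3 rose and 4 fell in EV-Proficient cells, against 31.1% and 27.1% of all genes, and 4 rose and 3 fell in EV-Deficient cells, against 32.4% and 30.5%. These shares are near those of all genes. Atg10 and its substrate Atg12, the ubiquitin-like protein that is joined to ATG5, both rose. Atg10 was at 1.83, 2.32 and 1.43 CPM without and 4.84, 4.90 and 4.17 CPM with paclitaxel in EV-Proficient cells (1.32 ± 0.19, adjusted p = 5.2e-06), and at 2.09, 1.75 and 2.00 and 5.22, 4.26 and 4.61 CPM in EV-Deficient cells (1.27 ± 0.19, adjusted p = 4.6e-06). Atg12 was at 46.9, 44.9 and 44.9 and 67.7, 57.7 and 66.4 CPM (0.49 ± 0.09, adjusted p = 4.8e-05), and at 39.95, 38.3 and 36.8 and 78.2, 68.03 and 59.7 CPM (0.84 ± 0.09, adjusted p = 2.0e-08). Every drug library of Atg10 and Atg12 lay above every DMSO library of the same derivative. Neither partner of the conjugate passed as higher. Atg5 did not pass, at 36.7 to 38.96 and 35.3 to 41.2 CPM in EV-Proficient and 37.7 to 37.97 and 32.6 to 42.3 CPM in EV-Deficient cells (0.01 ± 0.09, adjusted p = 0.94, and -0.07 ± 0.09, adjusted p = 0.51). Without the first EV-Deficient paclitaxel library its effect in those cells was -0.21 and passed (adjusted p = 0.0226), and the average over both derivatives, -0.03 ± 0.06, adjusted p = 0.68, became -0.13 and passed. Atg16l1, which places the conjugate on the membrane, fell from 50.1, 47.03 and 50.5 to 35.02, 37.04 and 31.9 CPM (-0.50 ± 0.07, adjusted p = 6.0e-06) and from 48.02, 54.2 and 49.95 to 34.3, 34.3 and 37.3 CPM (-0.52 ± 0.07, adjusted p = 2.5e-06). Atg3, the E2-like enzyme that transfers ATG8 proteins to lipid, fell from 45.7, 47.5 and 42.3 to 33.7, 30.5 and 32.9 CPM (-0.48 ± 0.07, adjusted p = 8.5e-06) and from 46.8, 44.02 and 43.3 to 38.5, 34.6 and 37.6 CPM (-0.28 ± 0.07, adjusted p = 0.0023). The second of these falls was -0.09 and did not pass with upper-quartile scaling (adjusted p = 0.258). Atg7, the E1-like enzyme shared by both conjugation branches, fell in EV-Proficient cells (-0.23 ± 0.08, adjusted p = 0.016), a call that was lost without the second EV-Proficient DMSO library (-0.19), when genes of low counts were kept (-0.20) and with upper-quartile scaling (-0.17), and did not pass in EV-Deficient cells (-0.10 ± 0.08, adjusted p = 0.28); averaged over both it was -0.16 ± 0.06, adjusted p = 0.012.

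The 4 ATG4 proteases, which prime ATG8 proteins and later release them from membrane, were mixed in direction. Atg4c rose in both derivatives, from 6.60, 6.99 and 7.41 to 15.04, 13.9 and 14.00 CPM (1.04 ± 0.11, adjusted p = 8.3e-08) and from 8.01, 8.28 and 7.50 to 14.6, 14.3 and 11.8 CPM (0.77 ± 0.11, adjusted p = 2.6e-06). Atg4b, the most abundant of the 4 per kilobase of exon in each group, did not pass in either, with values between 58.96 and 68.3 CPM in the 12 libraries (-0.11 ± 0.06, adjusted p = 0.14, and -0.05 ± 0.06, adjusted p = 0.44). Its effect in EV-Proficient cells was -0.19 and passed without the second EV-Proficient paclitaxel library (adjusted p = 0.0196), and was -0.15 and passed without any 1 of the 3 EV-Deficient paclitaxel libraries. Atg4a fell in EV-Proficient cells, from 14.4, 15.01 and 13.4 to 10.3, 10.8 and 10.7 CPM (-0.43 ± 0.10, adjusted p = 0.00092), and rose in EV-Deficient cells, from 11.9, 12.4 and 12.5 to 17.6, 14.8 and 15.5 CPM (0.38 ± 0.10, adjusted p = 0.002). Averaged over both, the effect on Atg4a did not pass (-0.03 ± 0.07, adjusted p = 0.75). The pseudogene Atg4a-ps, whose reads could be exchanged with those of Atg4a, was at most 0.41 CPM. Atg4d did not pass in EV-Proficient cells (-0.05 ± 0.10, adjusted p = 0.7) and fell in EV-Deficient cells, from 21.02, 21.7 and 21.95 to 11.98, 15.5 and 14.01 CPM (-0.64 ± 0.10, adjusted p = 1.1e-05), with an average of -0.35 ± 0.07, adjusted p = 0.00022. Of the exonic bases of Atg4d, 19.3% overlap Kri1 on the opposite strand, and Kri1 was at 13.9 to 27.3 CPM; the kit marks strand, but whether the counting used it is not given in the sources used here, so the values of Atg4d are uncertain. The same holds for other members with an opposite-strand partner over more than 10% of their exonic bases: Becn1 (43.9%, Cntd1, at most 0.931 CPM), Gabarapl1 (28.3%, 1700101I11Rik, at most 0.176 CPM), Uvrag (17.6%, Gm45187, at most 0.341 CPM) and Sqstm1 (17.3%, Mrnip, 1.70 to 4.04 CPM).

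The ATG8 family shifted its make-up under paclitaxel. Map1lc3a, one of the LC3 genes, rose in both derivatives. It was at 16.2, 21.3 and 19.6 CPM without and 39.8, 39.1 and 42.3 CPM with the drug in EV-Proficient cells, a 2.12-fold rise (1.08 ± 0.09, adjusted p = 1.1e-09). In EV-Deficient cells it was at 17.99, 16.7 and 17.1 and 33.1, 32.9 and 33.01 CPM, 1.91-fold (0.93 ± 0.09, adjusted p = 6.4e-09). Map1lc3b, the LC3 gene most used as a marker of autophagosomes, rose by less, from 149, 169 and 155 to 177, 187 and 197 CPM (0.24 ± 0.06, adjusted p = 0.0018) and from 149.9, 141 and 141 to 223, 215 and 219 CPM (0.60 ± 0.06, adjusted p = 2.0e-08). In the GABARAP branch, Gabarapl1 rose in both, from 32.6, 33.1 and 31.99 to 65.3, 68.8 and 70.3 CPM (1.06 ± 0.08, adjusted p = 2.0e-10) and from 43.2, 46.00 and 41.5 to 57.6, 60.4 and 48.6 CPM (0.35 ± 0.08, adjusted p = 0.00041). The rise of Gabarapl1 was larger in EV-Proficient cells, by an interaction of -0.72 ± 0.11, adjusted p = 1.7e-05, and the average over both was 0.71 ± 0.05, adjusted p = 1.8e-10. Gabarap showed the reverse: it was at 188, 208 and 193 and 202, 203 and 213 CPM in EV-Proficient cells, which overlap (0.07 ± 0.06, adjusted p = 0.32; 0.13 and passing with upper-quartile scaling), and rose from 175, 173 and 173 to 278, 272 and 252 CPM in EV-Deficient cells (0.62 ± 0.06, adjusted p = 6.3e-09), with an average of 0.35 ± 0.04, adjusted p = 1.8e-07. Gabarapl2 was at 74.99 to 82.5 and 64.1 to 75.4 CPM in EV-Proficient cells (-0.17 ± 0.07, adjusted p = 0.055) and fell in EV-Deficient cells, from 96.7, 89.2 and 88.7 to 73.9, 63.3 and 66.9 CPM (-0.43 ± 0.07, adjusted p = 2.8e-05). The effect on Gabarapl2 in EV-Proficient cells passed with median-of-ratios scaling and with DESeq2 (-0.19 in both) and when any of 6 libraries was left out (-0.27 to -0.21), with -0.27 without the first EV-Proficient paclitaxel library. The average over both derivatives was -0.30 ± 0.05, adjusted p = 2.9e-05, and the interaction -0.26 ± 0.10, adjusted p = 0.052.

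Shares of the summed family level per kilobase of exon, describe the same shift. They do not depend on how libraries were scaled but do depend on the length used. Map1lc3a made up 7.36, 8.80 and 8.72% of the family in the EV-Proficient DMSO libraries and 14.5, 14.2 and 14.9% in the EV-Proficient paclitaxel libraries. In EV-Deficient cells its share was 7.89, 7.52 and 7.80% without and 10.4, 10.7 and 11.3% with paclitaxel. Map1lc3a thus had a higher share in every drug library than in any DMSO library. Gabarapl2 moved the other way, from 17.6 ± 0.903% to 12.9 ± 1.29% (SD, n = 3) in EV-Proficient and from 20.8 ± 0.640% to 11.3 ± 0.772% in EV-Deficient cells. Gabarap held the largest share in each group, 54.9 ± 0.260% and 47.6 ± 0.473% in EV-Proficient and 49.9 ± 0.695% and 56.00 ± 0.556% in EV-Deficient cells without and with drug. Its share was lower with the drug in the first derivative and higher in the second. Gabarapl1 went from 8.35 ± 0.358% to 14.4 ± 0.351% in EV-Proficient cells and stood at 11.4 ± 0.605% and 10.6 ± 0.851% in EV-Deficient cells, where the libraries overlap. Map1lc3b stayed between 10.1 ± 0.173% and 11.3 ± 0.493% of the family over the 4 group means. With coding length the means were 15.2 to 17.5% for Map1lc3b, and for Map1lc3a 5.40 and 9.95% in EV-Proficient and 5.01 and 7.28% in EV-Deficient cells without and with drug.

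**Figure D3:**
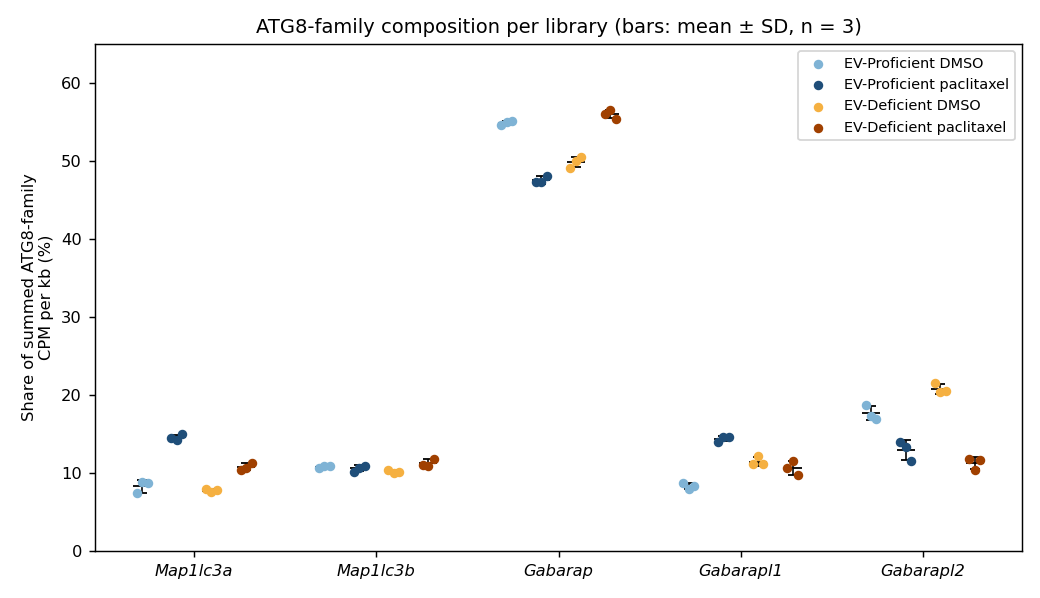
Share (%) of each of the 5 ATG8-family genes in their summed CPM per kilobase of exon, 1 point per library, with the mean ± SD (n = 3) of each group. Gabarap holds 47.6 to 56.0% on average, Map1lc3a is higher and Gabarapl2 lower in the drug libraries of both derivatives.

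Of the 5 cargo receptors 4 rose in each derivative, against 31.1% and 32.4% of all genes. With upper-quartile scaling all 5 rose in both, and with median-of-ratios scaling all 5 in EV-Deficient cells. Upper-quartile scaling also moved the median of all genes up, by 0.06 in EV-Proficient and 0.18 in EV-Deficient cells. Calcoco1, a relative of NDP52 that is known as a receptor for the turnover of endoplasmic reticulum, had the largest change of the 36 genes. It was at 13.1, 14.9 and 13.3 CPM in EV-Proficient DMSO and 77.8, 91.4 and 84.8 CPM in paclitaxel libraries, 6.16-fold higher (2.62 ± 0.11, adjusted p = 3.5e-14). In EV-Deficient cells it was at 18.1, 16.1 and 16.6 and 60.2, 77.2 and 56.4 CPM, 3.81-fold higher (1.93 ± 0.10, adjusted p = 7.8e-13). The lowest drug library (56.4 CPM) lay well above the highest DMSO library (18.1 CPM). Nbr1, a ubiquitin-binding receptor of protein aggregates and peroxisomes, went from 141, 128 and 129 to 329, 317 and 299 CPM in EV-Proficient cells (1.25 ± 0.07, adjusted p = 1.8e-12). Its EV-Deficient libraries went from 183, 179.7 and 181 to 266, 275 and 233 CPM (0.51 ± 0.07, adjusted p = 6.1e-07). Nbr1 started higher and ended lower in EV-Deficient cells, and the interaction was -0.74 ± 0.09, adjusted p = 1.4e-06; averaged over both, the effect was 0.88 ± 0.05, adjusted p = 4.2e-13. Optn, a receptor for bacteria and damaged mitochondria, rose from 20.5, 17.6 and 18.8 to 28.8, 30.8 and 24.03 CPM (0.56 ± 0.10, adjusted p = 3.0e-05) and from 15.5, 15.95 and 16.6 to 33.97, 31.6 and 29.7 CPM (0.99 ± 0.09, adjusted p = 7.6e-09). Tax1bp1, which acts with the others on ubiquitylated aggregates, rose in both, with log2 fold changes of 0.39 ± 0.06 and 0.44 ± 0.06 (adjusted p = 9.1e-06 and 1.2e-06, interaction 0.05 ± 0.08, adjusted p = 0.66). Sqstm1, the most abundant of the receptors, was at 786, 881 and 903 CPM in EV-Proficient DMSO and 911, 962 and 946 CPM in paclitaxel libraries (0.13 ± 0.06, adjusted p = 0.06). It was at 957, 906 and 983 and 1049.7, 1017 and 1054 CPM in EV-Deficient cells (0.13 ± 0.06, adjusted p = 0.056). The drug libraries of Sqstm1 lay above the DMSO libraries within each derivative. In this fit neither separate effect passed, but that in EV-Deficient cells passed under 7 of 20 other settings (0.32 with upper-quartile and 0.15 with median-of-ratios scaling) and that in EV-Proficient cells under 5 (0.19 with upper-quartile scaling). The average over both passed (0.13 ± 0.04, adjusted p = 0.0079), and did not without the second EV-Proficient (0.09) or the first EV-Deficient paclitaxel library (0.10).

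**Figure D4:**
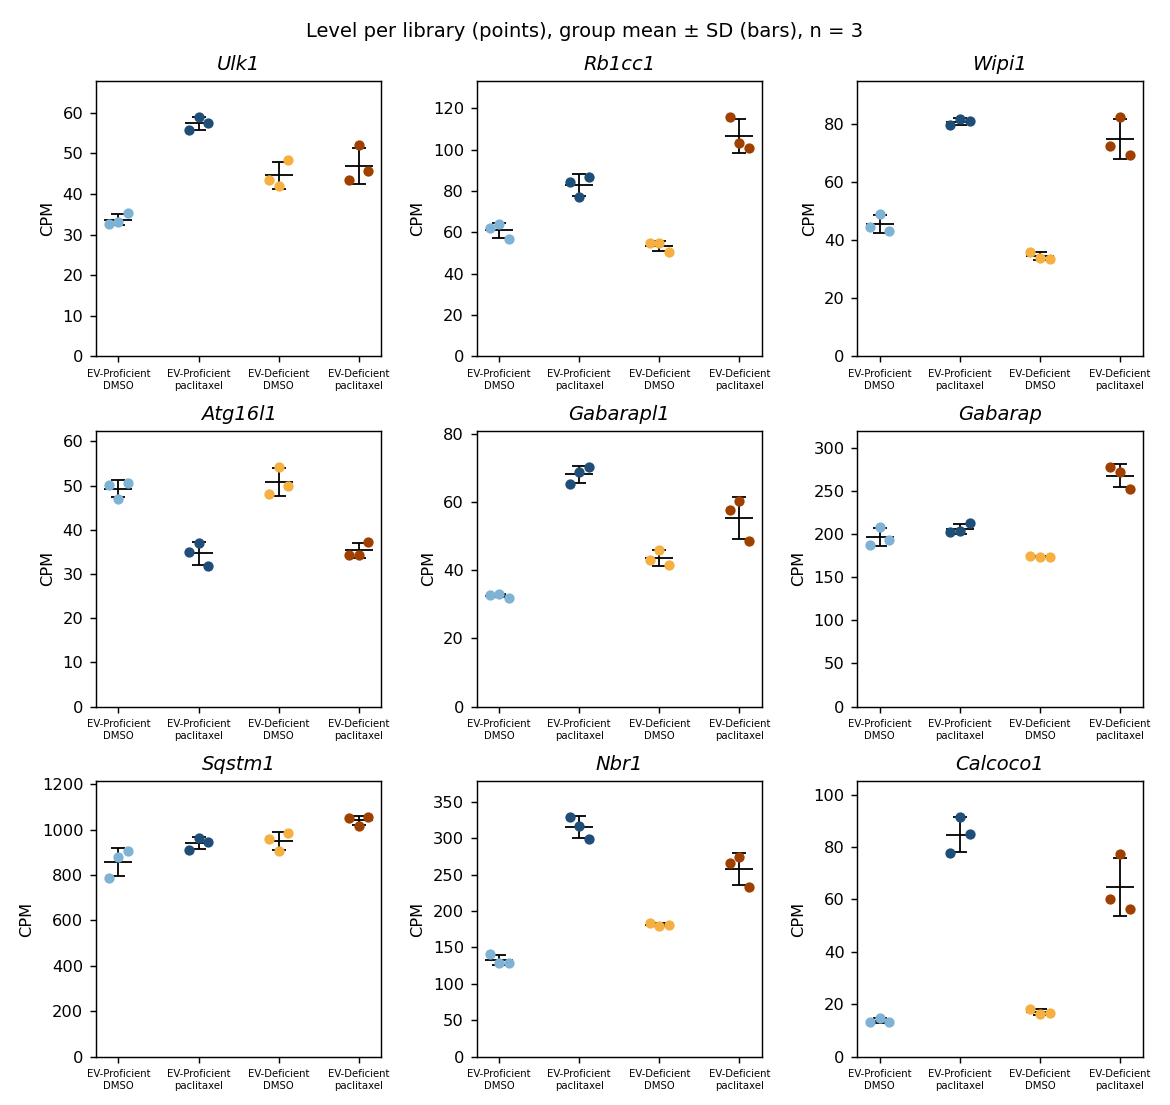
CPM of 9 members in each of the 12 libraries (points, linear axes that start at 0), with the mean ± SD (n = 3) of each group. Calcoco1, Rb1cc1 and Wipi1 separate drug from DMSO libraries in both derivatives, Gabarapl1 and Nbr1 separate them more widely in EV-Proficient cells, and the 4 groups of Sqstm1 differ little.

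The regions upstream of the transcription start are shown for 4 members that stand for the patterns above: Calcoco1 and Gabarapl1, which rose in both derivatives, Sqstm1, which changed little, and Atg3, which fell in both (in EV-Deficient cells not with upper-quartile scaling). They are the 250 bases before the RefSeq start on GRCm38.p6, read 5′ to 3′ on the gene's own strand, and capitals mark matches on either strand to GGGCGG (a GC box) or, in Atg3, also to CACGTG (the E-box) and TCACGTGA (the CLEAR core, the element of the lysosomal and autophagy regulators TFEB and TFE3, which contains the E-box).
Calcoco1, chr15:102722179-102722428 (minus strand): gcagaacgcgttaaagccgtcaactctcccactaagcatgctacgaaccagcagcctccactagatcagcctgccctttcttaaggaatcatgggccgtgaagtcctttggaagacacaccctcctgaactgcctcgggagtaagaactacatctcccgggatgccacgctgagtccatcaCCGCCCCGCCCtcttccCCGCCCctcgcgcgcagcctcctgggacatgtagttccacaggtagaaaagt
Gabarapl1, chr6:129532942-129533191 (plus strand): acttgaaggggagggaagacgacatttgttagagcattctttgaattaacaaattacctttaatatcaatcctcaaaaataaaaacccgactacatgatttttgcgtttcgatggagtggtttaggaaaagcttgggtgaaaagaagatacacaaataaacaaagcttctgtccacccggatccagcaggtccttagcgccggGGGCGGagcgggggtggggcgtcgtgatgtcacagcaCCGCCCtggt
Sqstm1, chr11:50210821-50211070 (minus strand): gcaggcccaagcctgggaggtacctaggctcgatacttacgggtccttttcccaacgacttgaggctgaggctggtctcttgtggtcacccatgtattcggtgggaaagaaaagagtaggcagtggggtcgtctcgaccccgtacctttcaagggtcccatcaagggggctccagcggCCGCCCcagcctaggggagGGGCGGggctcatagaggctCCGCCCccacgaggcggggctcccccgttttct
Atg3, chr16:45158579-45158828 (plus strand): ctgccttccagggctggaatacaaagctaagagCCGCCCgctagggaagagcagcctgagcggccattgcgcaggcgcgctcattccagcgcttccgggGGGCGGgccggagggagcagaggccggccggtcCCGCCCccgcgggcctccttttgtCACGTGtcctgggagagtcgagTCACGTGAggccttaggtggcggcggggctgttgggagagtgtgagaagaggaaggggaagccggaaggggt

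RefSeq windows of 300 bases around the start (GRCm38.p6) were found for 30 of the 36 genes, in 34 windows. On either strand, CACGTG was in 11.8% of the members' windows, in those of Atg3, Atg5, Atg7 and Atg14, and in 7.15% of the 32851 windows of all genes. Of these 4 genes, Atg14 rose in both derivatives, Atg3 fell in both, with the limit given above, Atg7 fell in 1 and Atg5 passed in neither. TCACGTGA was in 2.94% of the members' windows, that of Atg3, and in 0.974% of all windows. The FOXO motif GTAAACA was in none of the members' windows and in 3.65% of all. The antioxidant response element TGACNNNGC was in 11.8% against 12.4%, the C/EBP-ATF element TGATGNAA in none against 3.97%, and the interferon-stimulated response element in 2.94% against 3.44%. GGGCGG was in 61.8% against 35.7%, TATAAA in 5.88% against 13.6% and CCAAT in 26.5% against 37.4% of all windows, and the median GC content was 60.0% against 52.7%. These matches describe letters in the windows and were not tested against the expression changes.

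Between the EV labels no member passed at 2-fold or more, without drug or under paclitaxel, against 5.01% and 8.68% of all genes. Without drug 15 of the 36 passed, 10 higher and 5 lower in EV-Deficient cells, against 23.0% of all genes (12.4% and 10.6%). Under paclitaxel 16 passed, 6 higher and 10 lower, against 37.8% of all genes (16.0% and 21.8%). The libraries of the 2 labels did not overlap for 24 members without drug and 20 under paclitaxel, against 43.3% and 44.1% of all genes. Of the members, 9 (25%, against 15.7% of all genes) passed under both treatments, and in all 9 the sign was opposite; over all genes 2834 passed under both and 112 of them had the same sign. Passing or not, the sign was the same under both treatments for 10 of the 36 (27.8%, against 32.9% of all genes). The arrangement of libraries described above has the same form, and its part in these differences was not tested. The split into higher and lower depended on scaling. With upper-quartile scaling 8 were higher and 7 lower without drug, and 11 were higher and 5 lower under paclitaxel. That scaling moved the median of all genes by -0.028 without drug and by 0.095 under paclitaxel. With median-of-ratios scaling the splits were 8 and 6, and 8 and 10. Of the 9 members, Ulk1, Atg13, Ambra1 and Atg2b did not pass under paclitaxel with upper-quartile scaling (-0.20, -0.13, -0.15 and -0.14).

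Nbr1 had the largest EV-label difference without drug, at 183, 179.7 and 181 CPM in EV-Deficient against 141, 128 and 129 CPM in EV-Proficient DMSO libraries (0.45 ± 0.07, adjusted p = 2.3e-05). Under paclitaxel it was lower in EV-Deficient cells (-0.29 ± 0.07, adjusted p = 0.0014). Gabarapl1, Ulk1, Atg101, Atg2b, Atg13, Ambra1 and Calcoco1 had the same pair of signs, higher without and lower with drug. Among these, Gabarapl1 differed by 0.42 ± 0.08, adjusted p = 0.00035 without and -0.30 ± 0.08, adjusted p = 0.0037 with drug. Ulk1 differed by 0.40 ± 0.08, adjusted p = 0.00051 without and -0.29 ± 0.08, adjusted p = 0.0045 with drug. Gabarap had the opposite pair, -0.18 ± 0.06, adjusted p = 0.033 without and 0.38 ± 0.06, adjusted p = 3.3e-05 with drug. In the initiation complex 4 of 5 members passed without drug, against 23.0% of all genes, and 4 under paclitaxel, against 37.8%; under paclitaxel 3 passed with upper-quartile and 5 with median-of-ratios scaling. Of the 10 conjugation enzymes and proteases 1 (Atg12) passed without and 3 (Atg3, Atg4a and Atg4d) passed with drug. Wipi1 and Ulk2 were lower in EV-Deficient DMSO cells (-0.40 ± 0.07, adjusted p = 0.0003, and -0.39 ± 0.08, adjusted p = 0.0016) and did not pass under paclitaxel. The members Becn1, Pik3c3, Pik3r4, Atg2a, Atg9a, Atg4b, Atg4c, Atg5, Atg7, Atg10, Atg16l1, Sqstm1, Optn and Tax1bp1 passed in neither in this fit. Some non-calls were narrow too. Under paclitaxel, Sqstm1 passed under 7 other settings (0.24 with upper-quartile scaling) and Pik3c3, Optn and Tax1bp1 passed with upper-quartile scaling (0.19, 0.28 and 0.19). Under the same treatment Ulk2 passed under 7 other settings (0.30 with upper-quartile scaling), Becn1 without the first EV-Proficient DMSO (-0.16) or the third EV-Proficient paclitaxel library (-0.19), and Atg5 and Wipi1 without 1 library each: Atg5 without the first EV-Deficient (-0.21) and Wipi1 without the second EV-Deficient paclitaxel library (-0.18). Without drug, Rb1cc1 passed under 11 other settings (-0.23 to -0.20), Optn under 9 (-0.29 to -0.26), Map1lc3b under 5 (-0.17 to -0.16), Atg2a and Sqstm1 under 2 each and Atg4a under 1. Some of the EV-label calls were narrow. Without drug, that of Calcoco1 was lost when any 1 of 9 libraries was left out (0.25 to 0.35), that of Gabarap when any of 5 was (-0.18 to -0.13) and that of Atg12 when any of the 6 DMSO libraries was (-0.27 to -0.21). That of Gabarapl2 was lost when any of the 12 libraries was left out (0.16 to 0.24) and under 3 other settings. That of Wipi2 was lost without the second EV-Proficient (-0.18) or the second or the third EV-Deficient DMSO library (-0.19 in both) and without the low-count filter. Under paclitaxel, that of Atg14 was lost under 10 of 20 other settings, and without the first EV-Proficient paclitaxel library it was 0.19. That of Atg3 was lost when any of 11 libraries was left out (0.15 to 0.19) and that of Atg2b without the first EV-Deficient paclitaxel library (-0.19).

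**Figure D5:**
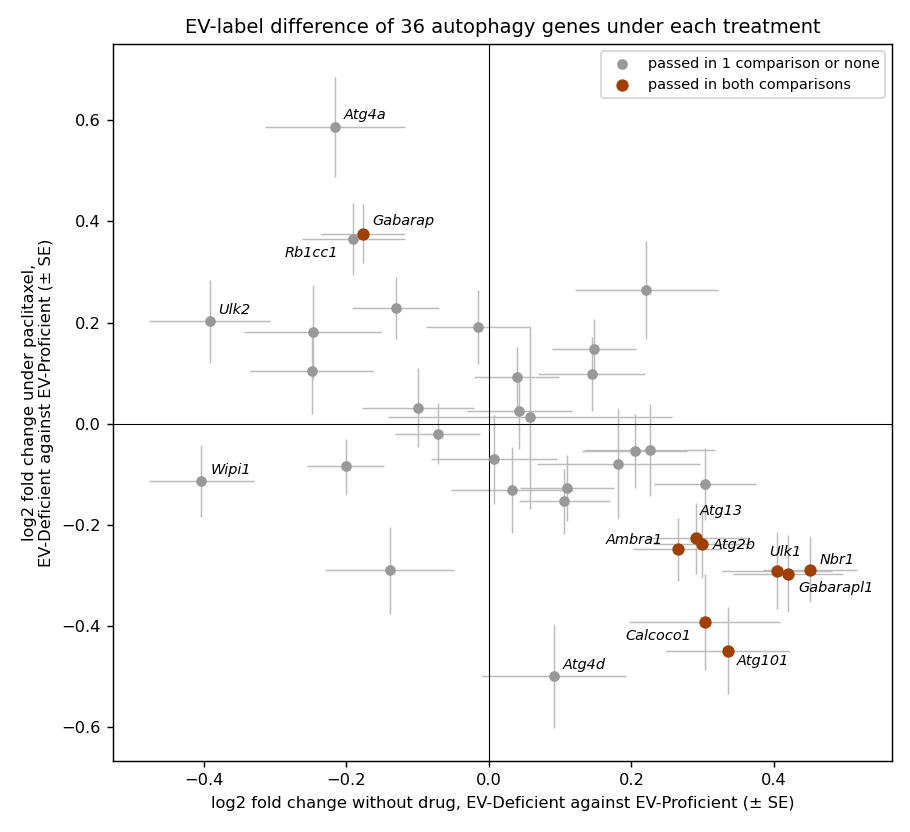
Log2 fold change of EV-Deficient against EV-Proficient libraries without drug (x axis) and under paclitaxel (y axis), ± SE, for the 36 genes, with those that passed in both comparisons in colour. The 9 coloured genes lie in the upper left (Gabarap) and lower right quadrants.

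The test of the difference between the paclitaxel effects (the effect in EV-Deficient minus that in EV-Proficient cells) passed for 20 of the 36, 8 positive and 12 negative, against 40.7% of all genes (16.9% and 23.8%); the split was 10 and 10 with upper-quartile scaling. The most negative terms were those of Atg101 (-0.78 ± 0.12, adjusted p = 2.5e-05), Nbr1 and Gabarapl1, given above, and Ulk1 and Calcoco1 (-0.69 ± 0.11, adjusted p = 2.4e-05, and -0.69 ± 0.14, adjusted p = 0.00047). The most positive was that of Atg4a (0.80 ± 0.14, adjusted p = 8.2e-05), followed by Ulk2 (0.59 ± 0.12, adjusted p = 0.00033), Rb1cc1 (0.56 ± 0.10, adjusted p = 0.00014) and Gabarap (0.55 ± 0.08, adjusted p = 1.5e-05). All 5 initiation genes passed, with Ulk1, Atg13 and Atg101 negative and Ulk2 and Rb1cc1 positive, so the paralogous kinases Ulk1 and Ulk2 had opposite terms. Of the lipid kinase genes, Uvrag, Ambra1, Becn1 and Pik3r4 passed with negative terms, those of Becn1 and Pik3r4 narrowly (-0.26 ± 0.09, adjusted p = 0.027, and -0.24 ± 0.09, adjusted p = 0.048); these were lost under 10 and 16 of 19 other settings. In turn, terms that missed the threshold passed for Gabarapl2 under 6 other settings (-0.32 to -0.26), for Atg3 under 4 (0.25 to 0.33), for Atg2a under 2 (-0.35 and -0.34) and for Wipi2 under upper-quartile scaling (0.24); the second EV-Deficient paclitaxel library was the one left out for Atg3 (0.30) and for Atg2a (-0.34). The paclitaxel effects on Pik3c3, Atg14, Atg10, Atg16l1, Atg4c, Map1lc3a and Tax1bp1 had no interaction that passed, with terms between -0.26 and 0.05.

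The regulators and partners around the core were followed with lists of other genes of the pathway. The counts of each list stand beside 31.1% of all genes that rose and 27.1% that fell in EV-Proficient cells, and 32.4% and 30.5% in EV-Deficient cells. From each list the genes with the largest change among those at a mean of at least 5 CPM are named. They were picked within 1 derivative at a time, so a gene named for 1 derivative may also have changed in the other. Of 18 genes of the mTORC1 and AMPK kinases, which inhibit and activate ULK1, 5 rose and 7 fell in EV-Proficient and 8 rose and 7 fell in EV-Deficient cells. Ddit4, an inhibitor of mTORC1, changed most in EV-Proficient cells, from 7.41, 10.8 and 10.6 to 97.6, 104 and 96.4 CPM (3.37 ± 0.17, adjusted p = 8.0e-13), followed by Sesn3, a nutrient-sensing sestrin (1.79 ± 0.09, adjusted p = 7.6e-13). Averaged over both derivatives the effect on Ddit4 was 2.33, with an interaction of -2.07, so its rise was smaller in EV-Deficient cells. In EV-Deficient cells the leading genes were Prkaa2, a catalytic AMPK subunit, which rose there (2.10 ± 0.11, adjusted p = 6.2e-13) and fell in EV-Proficient cells (-1.44 ± 0.11, adjusted p = 2.9e-10; average 0.33 ± 0.08, adjusted p = 0.00052), and Mlst8, a subunit of mTORC1, which fell (-1.32 ± 0.10, adjusted p = 2.2e-10). Of 10 tested (11 listed) genes of the MiT/TFE and FOXO transcription factors and folliculin partners, 5 rose and none fell in EV-Proficient cells, led by Foxo3 (1.22 ± 0.07, adjusted p = 4.2e-12) and Foxo4 (0.87 ± 0.08, adjusted p = 9.3e-09). In EV-Deficient cells 7 rose and 2 fell, led among genes of at least 5 CPM by Fnip1 (0.63 ± 0.07, adjusted p = 5.3e-08) and Tfeb (0.50 ± 0.16, adjusted p = 0.0077). The largest change of the list there was in Mitf, which lay under that level and was singled out after its values were seen, at 0.286, 0.354 and 0.373 CPM without and 1.53, 1.67 and 0.787 CPM with drug (1.97 ± 0.37, adjusted p = 9.7e-05).

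Of 11 further genes of autophagosome formation, 6 rose and 3 fell in EV-Proficient and 3 rose and 2 fell in EV-Deficient cells. Zfyve1, which marks the PI3P-rich sites where autophagosomes form, rose in both (1.05 ± 0.09, adjusted p = 1.5e-09, and 1.14 ± 0.09, adjusted p = 2.1e-10). Atg9b, a paralogue of Atg9a, rose in EV-Proficient cells (1.02 ± 0.12, adjusted p = 2.1e-07) and did not pass in EV-Deficient cells (-0.19 ± 0.12, adjusted p = 0.17). Sh3glb1, which encodes the membrane-curving protein endophilin B1, rose in EV-Deficient cells (1.00 ± 0.07, adjusted p = 6.9e-11) and did not pass in EV-Proficient cells (-0.09 ± 0.07, adjusted p = 0.29). Their interaction terms were -1.21 ± 0.17, adjusted p = 5.3e-06 and 1.09 ± 0.10, adjusted p = 1.6e-08. Of 14 genes of autophagosome-lysosome fusion, 5 rose and 6 fell in EV-Proficient and 6 rose and 5 fell in EV-Deficient cells. Tecpr1, a tether of autophagosomes and lysosomes, rose in both (1.00 ± 0.08, adjusted p = 3.0e-10, and 1.70 ± 0.08, adjusted p = 9.0e-14). Vps33a, a subunit of the tethering complex HOPS, fell in EV-Proficient cells (-1.14 ± 0.08, adjusted p = 7.0e-11) and was also lower with the drug in EV-Deficient cells (-0.77). Stx7, a lysosomal SNARE, rose in EV-Deficient cells (1.04 ± 0.07, adjusted p = 2.8e-11). Of 15 tested (16 listed) genes for other selective receptors and the kinase Tbk1, 4 rose and 8 fell in EV-Proficient and 7 rose and 3 fell in EV-Deficient cells. The mitophagy receptor Bnip3 rose in both (1.67 ± 0.13, adjusted p = 8.4e-10, and 1.31 ± 0.13, adjusted p = 1.5e-08), and its relative Bnip3l rose in EV-Proficient cells (1.14 ± 0.06, adjusted p = 3.5e-12). Phb2, a mitochondrial prohibitin, fell in EV-Deficient cells (-1.10 ± 0.07, adjusted p = 1.8e-11) and was also lower with the drug in EV-Proficient cells (-0.61). Calcoco2, the gene of NDP52, had the largest fitted change of this list in EV-Deficient cells but was barely detected: 0, 0.0209 and 0.0439 CPM in DMSO and 0.391, 0.368 and 0.262 CPM in paclitaxel libraries, with at most 2 counts in any of the former and 21 in any of the latter. It too was singled out after its values were seen. These lists, other than that of transcription factors in EV-Proficient cells, had members that moved in both directions.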

How the data were processed

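The authors deposited a table of raw read counts per gene for all 12 libraries, made from polyadenylated RNA with a stranded kit, per the labels' protocols. Per the submitters' processing notes the tool was STAR 2.5.0a and the build GRCm38; the counting program and its strand setting are not given in the sources used here. From these deposited counts, 2 added rows (gfp and dngfr) were set aside. Genes were filtered with filterByExpr (minimum count 10), scaled by TMM and fitted with edgeR 4.0.16 (R 4.3.3) in 1 quasi-likelihood model of 4 group means. P-values were adjusted over the 18108 genes tested by the Benjamini-Hochberg method, with a threshold of 0.05. Each SE was taken from the fold change and its F statistic. CPM used TMM-scaled library sizes, and levels per kilobase used exonic lengths of GENCODE vM21 on GRCm38.

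No 2 libraries of a group agreed within sampling noise (chi-square per degree of freedom 4.34 to 31.4 over 12 pairs). All 36 members are named; from each list of related genes, up to 2 with the largest change at a mean of at least 5 CPM are named per paclitaxel comparison. The members and lists were chosen with earlier results of these data known. Other scalings, filters, DESeq2 1.42.0, limma-voom (limma 3.58.1), a replicate block, fits of single comparisons and the removal of each library were tried. The average over both derivatives was added after the data were seen. Steps were tested on simulated data with the same dispersion for every gene. Of 195 changed genes tested there, 155 were recovered, with 11 false calls. A simulated comparison without changes gave 0 false calls.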

Additional observations from a re-analysis of the deposited data

Results flagged for a closer look

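The paclitaxel effect differed between the derivatives, by the interaction term of the model, for 20 members (edgeR quasi-likelihood, adjusted over all 18108 genes). In log2 units, EV-Deficient minus EV-Proficient, the negative terms were -0.78 for Atg101, -0.74 for Nbr1, -0.72 for Gabarapl1, -0.69 for Calcoco1, -0.69 for Ulk1, -0.59 for Atg4d, -0.54 for Atg2b, -0.52 for Atg13, -0.51 for Ambra1, -0.42 for Uvrag, -0.26 for Becn1 and -0.24 for Pik3r4. The positive terms were 0.80 for Atg4a, 0.59 for Ulk2, 0.56 for Rb1cc1, 0.55 for Gabarap, 0.43 for Optn, 0.36 for Map1lc3b, 0.35 for Atg12 and 0.29 for Wipi1. The call of Optn was lost without the first EV-Proficient DMSO library (0.36), that of Atg12 without that library (0.32) or EV-Deficient DMSO libraries 2 (0.34) or 3 (0.31), and that of Wipi1 without EV-Proficient DMSO library 2 (0.22) or EV-Deficient DMSO libraries 2 (0.26) or 3 (0.25). The terms passed for 55.6% of the members and 40.7% of all genes.

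The added row dngfr, which no comparison used, held at least 93 counts in every library, above the 3 counts that a count of 0 allows. Its libraries paired across the EV labels as the second principal component did. The other added row, gfp, held 0 counts in every library.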

How the results depend on the processing

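The counts of members that passed stayed within 1.5 times the reported ones under every alternative that was run. Shares of all genes under these alternatives were not worked out, so counts of members under them have no background beside them. Leaving out 1 library at a time gave 25 to 29 members for paclitaxel in EV-Proficient cells, 26 to 29 in EV-Deficient cells, 10 to 17 for the EV labels without drug, 14 to 18 under paclitaxel, 17 to 20 for the interaction and 29 to 32 for the averaged effect; the 10 came without the second EV-Deficient DMSO library. Over the other settings the counts were 26 to 30, 26 to 30, 13 to 20, 12 to 18, 18 to 21 and 29 to 31, in the same order. Of 4248 member values under alternatives, 3975 kept their direction and their side of the threshold or differed in sign with a call in neither fit (125 of them), 171 lost and 101 gained a call, and 1 turned over: the averaged effect on Ambra1 was 0.016 under upper-quartile scaling. That scaling moved the median of all genes by 0.18 in the EV-Deficient paclitaxel comparison and by 0.12 in the interaction and the average. Under it the fall of Atg3 in EV-Deficient cells was -0.09 and did not pass, and 22 members rose and 8 fell there.

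Replicate numbers showed no strong pairing of the libraries, with same-number correlations of -0.081 to 0.097. In 7 of 12 same-number pairs the correlation was the highest for the own number, so a weak pairing is not excluded. With the replicate number as a block, 30, 28, 15, 17, 20 and 31 members passed, in the order above. Levels per kilobase depended on the length used. With coding length, 28, 32, 28 and 32 members reached 10 CPM per kilobase in EV-Proficient DMSO, EV-Proficient paclitaxel, EV-Deficient DMSO and EV-Deficient paclitaxel cells. The ATG8 shares were then, in that order of groups, 5.40, 9.95, 5.01 and 7.28% for Map1lc3a, 16.3, 16.7, 15.2 and 17.5% for Map1lc3b, 49.1, 44.7, 44.4 and 51.9% for Gabarap, 5.85, 10.6, 7.99 and 7.73% for Gabarapl1 and 23.3, 17.97, 27.4 and 15.5% for Gabarapl2. The direction of each paclitaxel difference in share was the same with either length, except that of Map1lc3b in EV-Proficient cells. Depth limits Atg10 most, with a lowest count of 49.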
